A study of Homo sapiens with 18 samples.

Results

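The genes of the HLA class II pathway were measured in 3 established B-cell precursor leukemia lines. The 10 genes were taken by symbol: CIITA, CD74, HLA-DRA, HLA-DRB1, HLA-DPA1, HLA-DPB1, HLA-DQA1, HLA-DQB1, HLA-DMA and HLA-DMB. They are 10 of the 26941 genes in the count tables, and all 10 were found there. RNA was sequenced from 18 samples of the lines REH, 697 and RCH-ACV. Of the 6 samples per line, 3 had received SOX11 siRNA and 3 a control siRNA with no specific target, both at 300 nM by nucleofection, and RNA was taken after 48 h. SOX11 is a transcription factor, and an siRNA lowers the mRNA it matches without deleting the gene. Each is a single cell line, so a difference between lines is a difference between these lines only.

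Class II molecules sit on the surface of B cells, dendritic cells and macrophages, where they show peptides from taken-up protein to CD4+ T cells. Each is a pair of an alpha and a beta chain, of the DR, DP or DQ type. CD74, the invariant chain, fills the groove of a new pair and guides it to the endosome, and HLA-DM, made of the HLA-DMA and HLA-DMB products, exchanges the last piece of CD74 for a peptide. CIITA is the coactivator that switches these genes on. It does not bind DNA itself but docks on RFX, CREB and NF-Y factors at the S, X and Y boxes of class II promoters. B-lineage cells make class II without an outside signal, whereas many other cells need interferon gamma.

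On hg19, with GENCODE gene positions, the class II genes lie on chromosome 6. HLA-DRA spans 32407655 to 32412823 and HLA-DRB1 spans 32545679 to 32557625. HLA-DQA1 spans 32595956 to 32614839 and HLA-DQB1 spans 32627244 to 32636160. HLA-DMB spans 32902406 to 32908805 and HLA-DMA spans 32916390 to 32936871. HLA-DPA1 spans 33032346 to 33048552 and overlaps HLA-DPB1, on the opposite strand, from 33043767 to 33057473. CD74 lies on chromosome 5 from 149781200 to 149792532, and CIITA on chromosome 16 from 10960079 to 11036878.

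Promoter sequences from RefSeq (GRCh38.p14, 250 bases before to 50 after the start) were matched for 8 of the 10 genes, all but HLA-DRA and CIITA. They were searched on both strands for the Y-box word CTGATTGG, read CCAATCAG on the other strand, and for the NF-Y core word CCAAT, read ATTGG. The Y-box word holds the core word. CTGATTGG stood in the promoters of 3 of the 8 genes, against 4.75% of 27305 genes with a promoter, and CCAAT stood in 7 of the 8, against 39.7%. A word match describes the letters and is no test of binding. The following windows are shown because NF-Y is one of the factors CIITA docks on. They run 5′ to 3′ on the gene's own strand, with the matched word in capitals. For each gene 1 match is shown, CTGATTGG where the promoter held it and otherwise ATTGG before CCAAT, a choice made after the matches were seen. They are reference sequence, and the alleles of the 3 lines were not read.
HLA-DRB1: gaactcagatgCTGATTGGttctccaacac
HLA-DQB1: cagctccagtgCTGATTGGttcttttccga
HLA-DMA: cctacgcttctCTGATTGGtttagacaaaa
HLA-DPB1: agctcagtgtccATTGGttcttttctcaga
HLA-DQA1: gggatttttctaATTGGccaaaacctgact
CD74: ggccctgggcagCCAATgggatcgtgctgg
HLA-DMB: ctgcctacctagCCAATctgtccctgtttg

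The word shown began 49 bases before the start of HLA-DRB1, 91 before HLA-DQB1 and 82 before HLA-DMA. In HLA-DPB1 it began 99 bases before the start, in HLA-DQA1 68, in CD74 53 and in HLA-DMB 22. A further core word, not shown, began 195 bases before the start of HLA-DRB1, 64 before HLA-DQB1, 49 before HLA-DMA, 75 before HLA-DPB1 and 222 before HLA-DQA1. Exact matches to hg19 place the windows at chr6:32557656-32557685 for HLA-DRB1, chr6:32634507-32634536 for HLA-DQB1 and chr6:32920938-32920967 for HLA-DMA, all on the minus strand. The HLA-DPB1 window is at chr6:33043656-33043685 and the HLA-DQA1 window at chr6:32605103-32605132, both on the plus strand. The CD74 window is at chr5:149792509-149792538 and the HLA-DMB window at chr6:32908810-32908839, both on the minus strand. Each window matched its chromosome at 1 place except that of HLA-DRB1, which matched at 3. HLA-DPA1 held neither word.

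The files hold raw read counts, and levels are given as CPM, read counts scaled to a common library size, after TMM scaling over the 18 samples. Total counts lay between 7039594 and 16592492 per sample, so that the 3 counts taken as the smallest sign of a gene correspond to 0.181 to 0.426 CPM, which covers counting error only. Lengths of the counted transcripts were not used, so levels are compared between samples and not between genes. SOX11 itself was lower with SOX11 siRNA in each line, by 0.83 on the log2 scale in REH (SE 0.06), 0.91 in 697 (SE 0.07) and 0.67 in RCH-ACV (SE 0.05), with edgeR adjusted p-values of 1.45e-08, 2.21e-04 and 2.46e-06. Its mean level was 54.2 against 96.4 CPM in REH, 31.7 against 59.6 in 697 and 82.4 against 131.0 in RCH-ACV. By these counts a larger part of the SOX11 mRNA remained than the paper reports by RT-qPCR. Of 14 B-cell precursor markers, 13 were over 10 CPM in every sample of REH, 13 in 697 and 12 in RCH-ACV, so no line had all 14. The exception in REH was VPREB1, with a log2 difference in the control samples of -12.2 for REH over 697 and -11.9 for REH over RCH-ACV. Of 8 T-cell markers, 7 were in the tables and summed to at most 0.580 CPM in any sample. The 10 myeloid and dendritic markers summed to 9.49 to 17.2 CPM in REH, 2.94 to 5.11 in 697 and 24.1 to 31.3 in RCH-ACV. In REH most of that was MPO (12.7 to 14.9 CPM with control siRNA), which fell with SOX11 siRNA by 0.78 on the log2 scale (adjusted p = 2.37e-04), and in RCH-ACV most was CSF1R, at 23.1 to 30.4 CPM. The part of these markers in the class II levels was not tested.

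The first question was how much class II each line makes with control siRNA. All 10 genes were higher in REH than in 697 and than in RCH-ACV, by 1.92-fold to 25.4-fold over 697 and by 2.19-fold to 21.8-fold over RCH-ACV. Between 697 and RCH-ACV the genes split. The regulator CIITA, CD74, HLA-DRA and both HLA-DM chains were higher in RCH-ACV, while HLA-DRB1, both DP chains and HLA-DQB1 were higher in 697. The REH values were 3 replicates against 3 and the test was edgeR's quasi-likelihood F-test over the 9 control samples, adjusted over all genes. In bulk RNA, a higher level in each cell and a larger share of cells with the gene cannot be told apart.

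CIITA was measured at 332.0, 355.8 and 354.1 CPM in the REH control samples. In 697 it was at 38.0, 41.4 and 37.6 CPM, and in RCH-ACV at 66.5, 67.7 and 73.6 CPM. The lines did not overlap, in the order REH, RCH-ACV, 697. REH stood 8.86-fold above 697 (log2 3.15, 95% interval 3.02 to 3.27) and 4.97-fold above RCH-ACV (log2 2.31, interval 2.20 to 2.43). CIITA was lower in 697 than in RCH-ACV by a log2 difference of -0.83 (SE 0.07).

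CD74 followed the same order of lines. Its control level was 2659 ± 62.2 CPM in REH, 1206 ± 33.8 in RCH-ACV and 619 ± 28.6 in 697 (mean ± SD, n = 3 each). REH was 4.27-fold above 697 and 2.19-fold above RCH-ACV. HLA-DRA, the alpha chain that pairs with every DR beta chain, was measured at 1222, 1147 and 1150 CPM in REH, at 447.7, 458.2 and 435.6 in RCH-ACV and at 286.9, 262.2 and 258.4 in 697. These values too fell in the order REH, RCH-ACV, 697 without overlap, and REH was 4.33-fold above 697 and 2.60-fold above RCH-ACV.

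HLA-DRB1, the main DR beta chain gene, did not keep that order. It was at 358.4, 349.0 and 348.8 CPM in REH, at 60.9, 59.2 and 54.3 in 697 and at 20.8, 17.4 and 17.1 in RCH-ACV. RCH-ACV, the middle line for HLA-DRA, was therefore the lowest for HLA-DRB1, 18.8-fold below REH and 3.14-fold below 697. HLA-DRB5 and the pseudogene HLA-DRB6 are related in sequence to HLA-DRB1, so the split of reads among the 3 rows is uncertain. Which of these genes each line carries was not read either. The HLA-DRB6 count was 0.118 to 0.130 of the HLA-DRB1 count in the REH samples and 0.0544 to 0.102 in 697, but 1.15 to 1.84 in RCH-ACV. With the 3 rows summed, an alternative chosen after seeing the data, the log2 difference of REH over RCH-ACV was 2.95 (interval 2.85 to 3.05) in place of 4.24, and that of 697 over RCH-ACV was 0.29 (interval 0.18 to 0.40, adjusted p = 8.16e-05) in place of 1.65. Both kept their direction. The part in these differences of read assignment among the related rows, or of which DR genes a line carries, was not tested.

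The DP pair was the second exception. HLA-DPA1 was at 758.5, 744.9 and 752.1 CPM in REH, at 411.5, 380.0 and 374.2 in 697 and at 150.9, 139.8 and 146.0 in RCH-ACV. HLA-DPB1, its partner chain, was at 302.7 ± 5.86, 125.6 ± 3.70 and 74.9 ± 0.882 CPM in the same order of lines (n = 3 each). Both thus ran in the order REH, 697, RCH-ACV with no overlap. HLA-DPA1 showed the smallest difference of the 10 genes between REH and 697, 1.92-fold, yet one of 5.11-fold between REH and RCH-ACV. The 2 genes overlap on opposite strands, and although the kit keeps strand, how the counting used it is not given in the sources used here.

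The DQ genes rested on few reads outside REH. HLA-DQB1 was at 118.7, 114.0 and 115.5 CPM in REH, at 12.9, 10.1 and 12.7 in 697 and at 5.24, 5.85 and 4.78 in RCH-ACV, differences of 9.61-fold and 21.8-fold from REH. HLA-DQA1 was at 8.94, 7.97 and 9.06 CPM in REH, resting on 70 to 102 reads, and at 2.80 to 3.69 CPM in the other two lines, on 20 to 30 reads. HLA-DQA1 did not differ detectably between 697 and RCH-ACV (log2 difference 0.20, interval -0.24 to 0.64, adjusted p = 0.459). Its close copy HLA-DQA2 was at 5.13 to 6.37 CPM in the RCH-ACV control samples, above HLA-DQA1 there, and at 0.625 to 1.30 CPM in REH. With the reads of both rows summed, also after seeing the data, RCH-ACV stood at 8.50 ± 0.964 CPM and REH at 9.52 ± 0.882, and the call between them was lost (log2 difference 0.14, adjusted p = 0.359). The sum was lower in 697, at 3.43 ± 0.309 CPM, and the log2 difference of 697 over RCH-ACV was then -1.30 (adjusted p = 3.67e-06).

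HLA-DMB showed the largest gap between REH and 697 of the 10 genes. Its control samples were at 72.3, 63.6 and 68.6 CPM in REH, at 9.23, 9.62 and 8.97 in RCH-ACV and at 1.97, 3.53 and 2.57 in 697. The 697 values rest on 16 to 24 reads. The difference of REH over 697 was 25.4-fold (log2 4.67, interval 4.39 to 4.95). HLA-DMA, the other HLA-DM chain, was at 141.2 ± 6.94 CPM in REH, 32.6 ± 1.11 in RCH-ACV and 23.3 ± 1.47 in 697, the same order with smaller gaps.

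**Figure D1:**
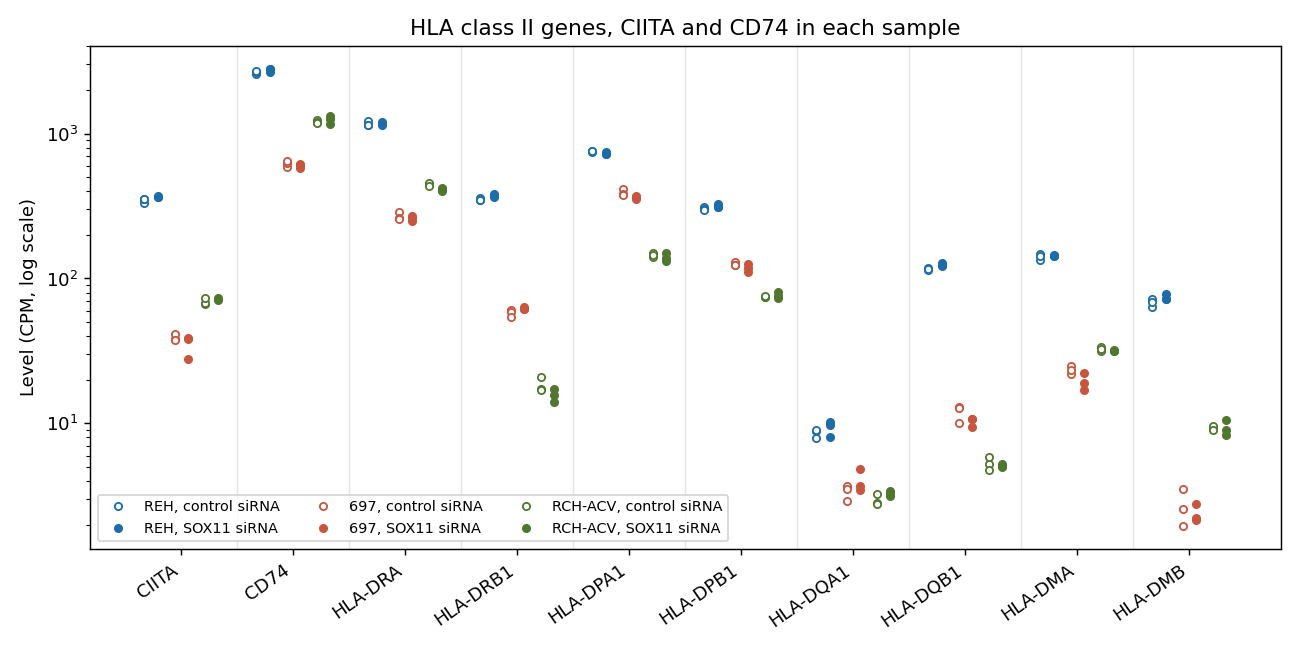
Level of each gene in each of the 18 samples, in CPM on a log axis. Open points are control siRNA and filled points SOX11 siRNA samples, 3 of each in REH (blue), 697 (red) and RCH-ACV (green). The REH points lie above those of the other lines for every gene, and open and filled points of a line lie close together.

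By the edgeR test, 10 of 10 genes were called higher in REH than in 697, with adjusted p at most 7.37e-07. Over all 13686 genes tested, 76.2% were called in either direction and 39.3% were called higher in REH. Against RCH-ACV, 10 of 10 were called higher in REH, with adjusted p at most 1.36e-07, where 73.7% of all genes were called and 36.1% were called higher in REH. Between 697 and RCH-ACV 9 of 10 were called, 4 higher and 5 lower in 697, where 64.2% of all genes were called and 30.9% were called higher in 697. A call between lines was thus common among all genes. The median log2 difference of the 10 genes was 2.35 for REH over 697 and 2.21 for REH over RCH-ACV, against 0.02 and -0.01 over all genes tested. It was -0.14 for 697 over RCH-ACV, against -0.01. The 3 comparisons share their control samples.

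**Figure D2:**
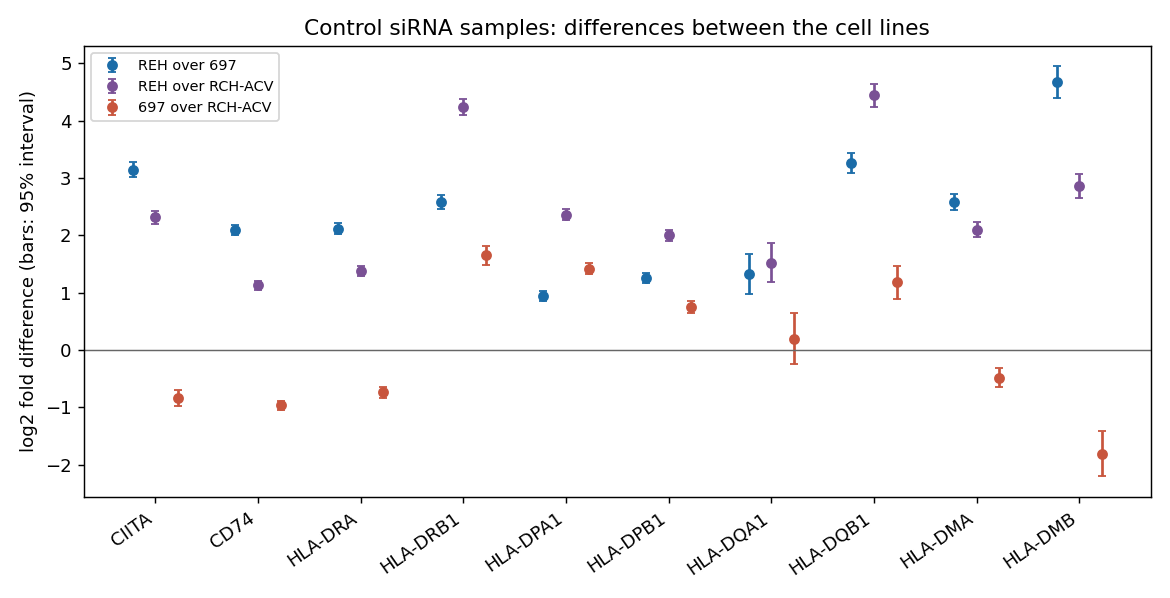
Log2 difference between lines in the control siRNA samples for each gene, with 95% intervals from the edgeR fit (3 samples a line). All points of REH over 697 (blue) and REH over RCH-ACV (purple) lie above 0, and the points of 697 over RCH-ACV (red) lie on both sides of it.

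Partner chains were compared by the ratio of their counts within a sample, in which depth and scaling cancel. Over the 6 samples of each line, the HLA-DRB1 count was 0.293 to 0.326 of the HLA-DRA count in REH, 0.210 to 0.246 in 697 and 0.0335 to 0.0466 in RCH-ACV. With the HLA-DRB1, HLA-DRB5 and HLA-DRB6 counts summed, again after seeing the data, the ratio to HLA-DRA was 0.403 to 0.451 in REH, 0.280 to 0.318 in 697 and 0.128 to 0.144 in RCH-ACV, the same order with a narrower gap. The HLA-DMB count was 0.475 to 0.541 of the HLA-DMA count in REH, 0.257 to 0.336 in RCH-ACV and 0.0792 to 0.161 in 697. In both pairs the 3 lines did not overlap, and a different line was the lowest. The DP ratio moved least, from 0.313 to 0.345 in 697 through 0.396 to 0.433 in REH to 0.495 to 0.551 in RCH-ACV. HLA-DQB1 counts were 12.5 to 15.3 times HLA-DQA1 counts in REH, 2.21 to 3.62 times in 697 and 1.48 to 1.84 times in RCH-ACV. With the HLA-DQB2 and HLA-DQA2 counts added, the DQ ratio was 13.1 to 15.6 in REH, 2.21 to 3.69 in 697 and 0.662 to 0.821 in RCH-ACV. These are ratios of reads on rows of different length, so they can be compared between lines only. The alleles of the 3 lines were not read, and their part in how reads matched the reference rows was not tested. A ratio also moves with either of its genes.

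The target genes were not in fixed proportion to CIITA. HLA-DPA1 counts were 1.93 to 2.28 times those of CIITA in REH and 1.82 to 2.27 times in RCH-ACV, but 9.17 to 12.6 times in 697. HLA-DRA counts were 3.06 to 3.68 times those of CIITA in REH, 5.46 to 6.77 times in RCH-ACV and 6.33 to 9.38 times in 697. CD74 counts were 2.12 to 2.45 times those of HLA-DRA in REH and 2.05 to 2.49 times in 697. In RCH-ACV they were 2.62 to 3.19 times, a smaller shift but without overlap with the other lines.

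**Figure D3:**
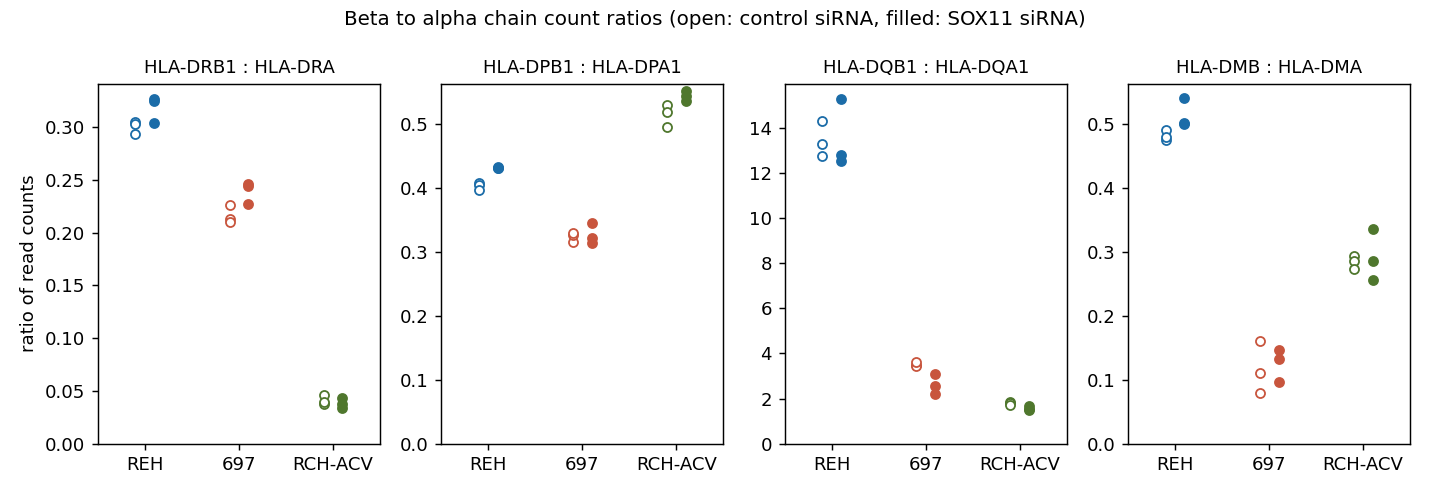
Ratio of beta chain to alpha chain read counts in each sample, by cell line, on linear axes from 0. Open points are control siRNA and filled points SOX11 siRNA. RCH-ACV is lowest for HLA-DRB1 over HLA-DRA and 697 is lowest for HLA-DMB over HLA-DMA.

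The second question was whether SOX11 siRNA moved these genes. No member was called in any line: 0 of 10 in REH, where 4.65% of 12787 genes tested were called, 0 of 10 in 697, where 0.559% of 12169 were called, and 0 of 10 in RCH-ACV, where 7.51% of 12963 were called. DESeq2 also called 0 in each line. At an unadjusted p under 0.05 the edgeR test held 4 members in REH, 1 in 697 and 2 in RCH-ACV, against 2155, 1003 and 2911 genes in all. The median log2 fold change of the 10 genes was 0.08 in REH, -0.09 in 697 and -0.02 in RCH-ACV, against -0.0022, -0.0038 and 0.0049 over all genes tested. The siRNA and control samples did not overlap for 3 of 10 members in REH, 2 in 697 and 1 in RCH-ACV, against 21.4%, 13.1% and 25.9% of all genes tested in these lines. These counts use the HLA-DRB1 row alone, and its overlap changed with the rows of its copies added, as given below. All siRNA fold changes of the members lay between -0.28 and 0.23 on the log2 scale.

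In REH, 9 of the 10 estimates were above 0. CIITA was at 373.1, 365.5 and 366.3 CPM with SOX11 siRNA, all above the 3 control samples (332.0 to 355.8). Its log2 fold change was 0.09 (SE 0.04, interval 0.02 to 0.16, adjusted p = 0.167). HLA-DRB1 gave 373.2, 385.5 and 362.1 CPM against 348.8 to 358.4, also without overlap (log2 0.09, adjusted p = 0.166). With the HLA-DRB5 and HLA-DRB6 reads added, its samples overlapped, at 492.0 to 532.1 against 481.1 to 492.3 CPM (log2 0.07, adjusted p = 0.261). HLA-DQB1 gave 124.1, 128.6 and 122.8 CPM against 114.0 to 118.7, again without overlap (log2 0.11, adjusted p = 0.169). HLA-DMB had the largest estimate, 0.13 (interval 0.01 to 0.25, adjusted p = 0.231), with overlapping samples, and it was 0.07 without the second control sample. HLA-DRA had a log2 fold change of 0.01 (interval -0.06 to 0.07).

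In 697, 8 of the 10 estimates were below 0, with wider intervals. HLA-DMA was at 22.3, 18.9 and 16.9 CPM with SOX11 siRNA and at 24.8, 21.9 and 23.2 with control siRNA (log2 -0.28, SE 0.12, adjusted p = 0.571). HLA-DPA1 was at 369.6, 367.1 and 352.8 CPM against 374.2 to 411.5, without overlap (log2 -0.10, adjusted p = 0.644). The other two estimates were above 0. HLA-DRB1 was at 61.2, 61.8 and 64.0 CPM against 60.9, 59.2 and 54.3, also without overlap (log2 0.10, interval -0.05 to 0.25, adjusted p = 0.818). With the HLA-DRB5 and HLA-DRB6 reads added, its samples overlapped, at 79.0 to 80.6 against 74.6 to 80.2 CPM (log2 0.05, adjusted p = 0.925). HLA-DQA1, on 20 to 38 reads, had the largest estimate above 0 of the members in any line (log2 0.23, interval -0.25 to 0.71, adjusted p = 0.893), and it was 0.08 without the first SOX11 siRNA sample. CIITA was at 38.9, 38.2 and 27.9 CPM with SOX11 siRNA, so that its estimate of -0.16 (interval -0.43 to 0.12) leaned on 1 low sample, and without that sample it was -0.01. For HLA-DMB, on 16 to 24 reads, the interval ran from -0.76 to 0.47, so a change of that size was not detectable at this depth.

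In RCH-ACV the lowest adjusted p of all was that of HLA-DRA. Its samples were at 398.6, 414.8 and 420.7 CPM with SOX11 siRNA and at 447.7, 458.2 and 435.6 with control siRNA, without overlap (log2 -0.12, SE 0.04, interval -0.20 to -0.04, adjusted p = 0.0707). HLA-DRB1 was at 17.2, 15.7 and 14.1 CPM against 20.8, 17.4 and 17.1 (log2 -0.24, SE 0.11, adjusted p = 0.193), and the estimate was -0.14 without the first control sample. With the HLA-DRB5 and HLA-DRB6 reads added, its samples did not overlap, at 51.0 to 58.6 against 62.0 to 63.5 CPM (log2 -0.17, adjusted p = 0.112). Without the third SOX11 siRNA sample of RCH-ACV, 2 members passed the threshold, HLA-DRA (log2 -0.13, adjusted p = 0.00681) and CD74 (log2 0.10, adjusted p = 0.0186). CIITA had an estimate of 0.06 (interval -0.06 to 0.18) in this line and CD74 one of 0.06 (interval -0.03 to 0.15).

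Whether the siRNA effect differed between lines was tested in one fit over the 18 samples. The interaction was called for 0 of 10 members by edgeR, where 0.734% of 14026 genes were called, and for 0 by DESeq2. At an unadjusted p under 0.05 the edgeR test held 3 members, HLA-DRB1, HLA-DMA and HLA-DQB1, and 1416 genes in all. HLA-DRB1 came nearest, with an unadjusted p of 0.00776 and an adjusted p of 0.252.

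**Figure D4:**
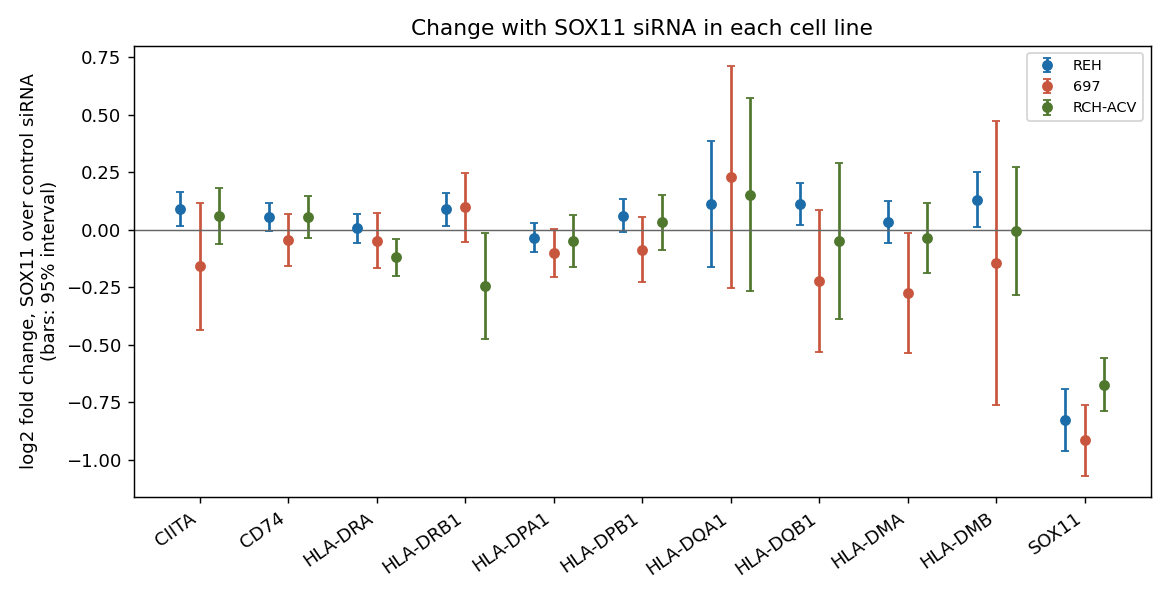
Log2 fold change with SOX11 siRNA over control siRNA in each line, with 95% intervals from the edgeR fits (3 samples against 3). The 10 class II genes lie within 0.28 of 0 in each line, and SOX11, the target, lies at -0.67 to -0.91.

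The other genes of the pathway were taken from lists written with earlier results of these data known. Among 8 further class II rows, HLA-DRB3 and HLA-DRB4 had no count in any sample. Neither had a position among the hg19 gene positions used, so the lack of counts says nothing about their expression. Of the 6 tested between control lines, 6 were called higher in REH than in 697, and against RCH-ACV 5 were called higher in REH and 1 lower, beside 39.3% and 36.1% of all genes called higher in REH. HLA-DOA, a chain of HLA-DO, which holds HLA-DM back, was at 275.1, 292.4 and 284.8 CPM in REH, 45.6, 39.8 and 44.4 in RCH-ACV and 12.7 to 15.8 in 697, the line order of CIITA. The gap between REH and 697 was 4.31 on the log2 scale (SE 0.07). HLA-DOB, its partner, was at 4.85 to 5.96 CPM in REH and on 1 to 2 reads a sample in 697. HLA-DQB2 was at 18.9 to 20.6 CPM in REH, 0.466 to 0.797 in RCH-ACV, and had no read in 2 of the 3 control samples of 697. With SOX11 siRNA 1 of the 6 tested in REH was called, beside 4.65% of all genes. HLA-DOA rose from its control values above to 313.3, 312.1 and 307.6 CPM (log2 0.14, SE 0.04, adjusted p = 0.0258), with no overlap. None of this list was called among 3 tested in 697 and 5 in RCH-ACV, where 0.559% and 7.51% of all genes were called.

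The factors on which CIITA docks differed by less between lines than CIITA. Of the 8 promoter-binding factors, 6 were called between REH and 697, 4 higher and 2 lower in REH, and 5 between REH and RCH-ACV, 3 higher and 2 lower. Only 2 were called between 697 and RCH-ACV. Over all genes the shares called were 76.2%, 73.7% and 64.2%. Among the largest differences, ATF1, a CREB family factor, was 0.58 higher on the log2 scale in REH than in 697, NFYA, an NF-Y subunit, had a log2 difference of -0.37 and RFXAP, an RFX subunit, one of -0.35. Against RCH-ACV, ATF1 was 0.57 and RFX5, the DNA-binding RFX subunit, 0.48 higher in REH, and NFYA had a log2 difference of -0.39. RFXANK, the remaining RFX subunit, had a log2 difference of -0.50 for 697 over RCH-ACV, and RFX5 one of 0.37. The list's median was 0.09 for REH over 697 and -0.01 for REH over RCH-ACV. With SOX11 siRNA, RFX5 rose in REH from 199.4, 201.2 and 203.7 CPM to 221.2, 218.3 and 218.7 (log2 0.13, adjusted p = 0.0416). NFYB, an NF-Y subunit, fell in RCH-ACV by 0.26 on the log2 scale (adjusted p = 0.0106), and none was called in 697. All 8 were tested in each line, where 4.65% (REH), 0.559% (697) and 7.51% (RCH-ACV) of all genes were called.

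**Figure D5:**
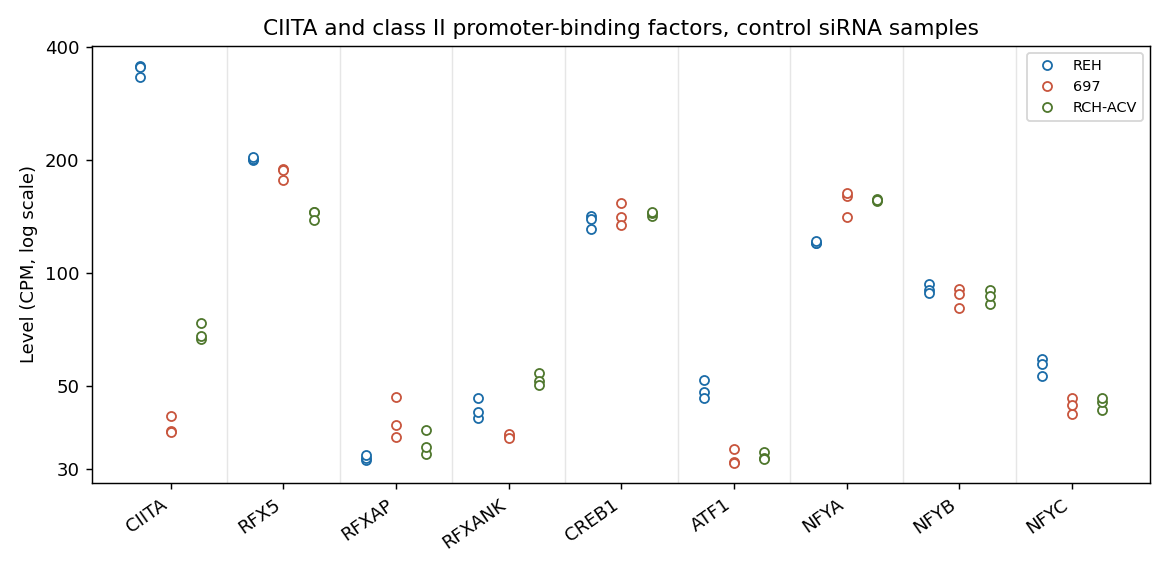
Levels of CIITA and of 8 factors that bind class II promoters in the control siRNA samples, in CPM on a log axis, 3 samples a line. CIITA is at 332.0 to 355.8 CPM in REH, 66.5 to 73.6 in RCH-ACV and 37.6 to 41.4 in 697, whereas the factors lie within a narrow range across lines.

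Of 25 factors known to act on CIITA or with it, 19 of 24 tested were called between REH and 697, of which 16 were higher in REH, and 20 of 24 between REH and RCH-ACV, of which 16 were higher in REH. Over all genes 76.2% and 73.7% were called, so the counts called in either direction lie near the background. The shares of all genes called higher in REH were 39.3% and 36.1%. SPI1 (PU.1), a B-lineage and myeloid factor, was at 34.1 to 37.8 CPM in REH and 19.6 to 25.0 in RCH-ACV, while 697 had 2 reads in 1 control sample and none in the other two. IKZF3 (Aiolos), a B-lineage factor, ran the other way, with 45.8 to 50.4 CPM in 697, 0.777 to 1.24 in REH and a single read over the control samples of RCH-ACV. PRDM1 (Blimp-1), which shuts CIITA off in plasma cells, was at 3.23 to 5.28 CPM in 697, 0.518 to 1.64 in REH and 0.932 to 2.39 in RCH-ACV. Its log2 difference was -2.01 for REH over 697 and 1.45 for 697 over RCH-ACV. Between REH and RCH-ACV, BACH2 (log2 1.68) and NLRC5, the coactivator of class I genes (log2 1.30), followed IKZF3 among the largest differences.

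With SOX11 siRNA, 5 of 23 tested factors of that list were called in REH (3 higher, 2 lower), 1 in 697 (lower) and 4 in RCH-ACV (2 higher, 2 lower), beside the shares of all genes called given above. IRF4, a B-lineage factor, rose in REH from 113.2, 107.7 and 102.9 CPM to 144.7, 140.3 and 145.3 (log2 0.41, SE 0.04, adjusted p = 1.71e-06). BACH2 (0.24) and DNMT1, the maintenance DNA methyltransferase (0.18), rose there too. EBF1, an early B-cell factor, fell in 697 by 0.34. In RCH-ACV, IKZF1 (Ikaros) fell by 0.31 and HDAC2, a histone deacetylase, by 0.21, and DNMT1 rose by 0.19. CIITA itself was not called with the siRNA in any line.

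The interferon gamma list gave 1 call with SOX11 siRNA, JAK1 in REH (log2 0.21, adjusted p = 0.00349). In that line 5 of the list were tested, and 4.65% of all genes were called. Between control lines, 6 of 7 tested were called for REH against 697, 3 in each direction, 5 for REH against RCH-ACV and 6 for 697 against RCH-ACV, beside 76.2%, 73.7% and 64.2% of all genes. IFNGR1, a receptor chain, was 1.38 higher on the log2 scale in REH than in 697 and 0.88 higher than in RCH-ACV. The induced genes GBP2 and SOCS1 were close to the floor in REH, at 0.0782 to 0.388 and 0.0951 to 0.156 CPM, and at 1.91 to 3.19 and 0.860 to 1.62 CPM in 697. Both were called lower in REH than in 697.

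Among 22 genes of class II processing and turnover, 15 were called between REH and 697 (8 higher, 7 lower in REH) and 16 between REH and RCH-ACV (7 higher, 9 lower), with medians near 0 (0.0010 and -0.05). These counts too lie near the 76.2% and 73.7% of all genes called. CTSL, a lysosomal protease, was at 16.9 to 19.3 CPM in REH and had no read in any sample of 697 or RCH-ACV. LGMN, another lysosomal protease, was at 19.8 to 24.1 CPM in the RCH-ACV control samples and on at most 1 read a control sample elsewhere. With SOX11 siRNA 3 of 21 tested were called in REH, beside 4.65% of all genes. CTSH, a cathepsin, fell from 5.32, 4.46 and 4.92 CPM to 2.59, 2.37 and 3.06 (log2 -0.84, adjusted p = 0.0108), CTSL fell by 0.41, and the tetraspanin gene CD82 rose by 0.82. CTSH also fell in RCH-ACV, by 0.22 (adjusted p = 0.0497). It was the 1 call of 21 tested there, beside 7.51% of all genes. In 697 0 of 19 tested were called, beside 0.559% of all genes.

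The genes with the most similar pattern were found by the root mean square difference of centred log2 levels over the 18 samples. Nearest to HLA-DRA were SVIP (0.0844), SYK, a B-cell receptor kinase (0.0920), the unnamed row NM_080750 (0.0934), CMIP (0.0957) and PTPRE (0.105). CD74 was rank 18 of 14025 for HLA-DRA, at 0.174. Nearest to CIITA were PLCG2, a B-cell receptor signalling phospholipase (0.178), STK33 (0.184), FHIT (0.211), ZNF853 (0.214) and RASD2 (0.222), and HLA-DMA was the nearest member, at rank 11 (0.248). HLA-DRB1, by its own row alone, was rank 11252 for HLA-DRA. The split of reads with HLA-DRB5 and HLA-DRB6 is uncertain, and the rank of the summed rows was not computed. The 18 samples come from 3 lines, so this likeness is mostly that of 3 line levels.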

How the data were processed

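RNA was sequenced from 18 samples. Per the study's methods, libraries were stranded, reads were checked with FastQC 0.10.1, trimmed, aligned to hg19 with STAR 2.5.3a (reads with more than 2 alignments were dropped) and counted with HOMER on RefSeq transcripts. The authors deposited raw counts, 1 table per line, so table and line cannot be told apart. Transcripts were matched to symbols with a RefSeq gene table (98.0% of 50678) and the transcript with the highest total was kept per gene. The members and lists were chosen with earlier results of these data known.

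edgeR 4.0.16 in R 4.3.3 (TMM, filterByExpr, quasi-likelihood F-test, two-sided, Benjamini-Hochberg adjusted p under 0.05 called) was fitted within each line for the siRNA, over the 9 control samples for the lines, and over 18 samples for the interaction. The fits were tested on simulated data. Samples were 3 a group, described by the authors as biological replicates, and no pair of replicates agreed within sampling noise (chi-square per degree of freedom at least 1.30). Named were all members, SOX11, per list at most the 3 called genes with the lowest adjusted p for the siRNA or the largest difference between lines, and the 5 nearest genes to HLA-DRA and CIITA. HLA-DRB6, HLA-DQA2, MPO, CSF1R and VPREB1 were named after their values were seen. Alternatives were RLE scaling, library size alone, DESeq2 1.42.0, other filters, a stricter threshold, another transcript choice, a replicate block and leaving out each sample. Tables and plots used Python 3.11.15, pandas 2.3.3 and matplotlib 3.10.9. The cytogenetic background of the lines is not reported here.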

Additional observations from a re-analysis of the deposited data

Results flagged for a closer look

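No member of the class II set was called for a difference between lines in its response to the siRNA. Among the listed factors that act on CIITA or with it, 2 of 24 tested were called by the interaction test of edgeR over the 18 samples. Over all 14026 genes tested, 0.734% were called. IRF4 had an adjusted p of 0.00150, and its siRNA estimates on the log2 scale were 0.41 (REH), -0.12 (697) and -0.02 (RCH-ACV). IKZF1 had an adjusted p of 0.0147, and its estimates were 0.07 (REH), -0.15 (697) and -0.31 (RCH-ACV). The 3 IRF4 values with SOX11 siRNA lay above all 3 control values in REH, and the 3 IKZF1 values lay below all 3 in RCH-ACV. Groups of 3 samples were too small for a test of outlying samples.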

How the results depend on the processing

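Of 125 recounts of called members under the alternatives, 124 stayed within 1.5 times the main count. The exception was the count with SOX11 siRNA in RCH-ACV, which ranged from 0 to 2 when samples were left out in turn. Of 990 log2 values of single members, 971 kept their direction and their side of the threshold. Of those between control lines 538 of 540 did, and both exceptions were HLA-DQA1 with the HLA-DQA2 reads added, at 0.14 for REH over RCH-ACV and -1.30 for 697 over RCH-ACV. Reversed siRNA values were all small and uncalled. They were HLA-DRA in REH (-0.0023 with library size alone, -0.0116 to 0.0375 with samples left out), HLA-DMB in RCH-ACV (0.0047 with library size alone, 8.4e-04 with DESeq2, -0.0828 to 0.0502 with samples left out) and HLA-DQA1 in RCH-ACV (-0.12 with summed rows). With samples left out, HLA-DMA in REH ranged from -0.00884 to 0.0700, HLA-DMB in 697 from -0.339 to 0.0932, HLA-DPB1 in RCH-ACV from -0.0136 to 0.0584 and HLA-DQB1 in RCH-ACV from -0.118 to 0.0252. The cause was not tested.

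Replicate numbers did not pair the samples: deviations of samples with the same number correlated from -0.245 to 0.252. With the replicate block, 0 members were called for the siRNA in each line and for the interaction, and 10, 10 and 9 between lines, so no count changed. For the interaction the alternative transcript choice is the main one. Depth limits HLA-DQA1, HLA-DQB1 and HLA-DMB outside REH.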

Other observations

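CD74 has RefSeq rows for a long form, whose extra exon encodes a thyroglobulin-like domain, and for the usual shorter form. The reads that the long row held beyond the shorter row were 0.918% to 1.14% of the long row in the 6 REH samples (214 to 381 reads), 1.26% to 1.81% in 697 (60 to 94 reads) and 1.32% to 1.69% in RCH-ACV (136 to 373 reads). REH, the line with the most CD74, thus had the lowest share, with no overlap with the other lines. The difference of 2 rows is an estimate of exon reads, and it was not tested between lines.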
